A study of Mus musculus with 12 samples.

Results

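Directed cardiac cultures of mouse induced pluripotent stem cells (iPSCs) at day 4 were compared with the undifferentiated iPSCs at day 0. The comparison used 6 of the 12 gene arrays of the series, taken by their labels: 3 of undifferentiated iPSCs at day 0 and 3 of cells that had passed through the optimized cardiac differentiation for 4 days. Both groups are iPSCs or cells grown from them, and the labels give no strain, genetic change or reprogramming method for either, nor the agents of the cardiac protocol. They carry short names that are not expanded and were not interpreted. The labels do not say whether replicates came from separate cultures, so each p-value reflects the spread of these arrays alone. The series title places the work around Lpar4, the receptor 4 for lysophosphatidic acid, as a gene expressed for a time during cardiac differentiation. Of the other arrays, 3 were of spontaneously differentiated cells at day 4, used for a comparison at the end, and 3 were of cells sorted at day 4 for FLK1 and PDGFRα, which entered the shared estimate of spread, the choice of 1 probe set a gene and a correlation with Lpar4 over all arrays.

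Mouse iPSCs in the naive state resemble the epiblast of the embryo before implantation and depend on the cytokine LIF acting through STAT3. On leaving that state they pass through a formative and then a primed epiblast stage, and WNT, Nodal and BMP signals then lead cells through the primitive streak into mesoderm. The mesoderm that gives the heart carries the receptors KDR (also called FLK1) and PDGFRα before cardiac transcription factors and contractile proteins appear. Visceral endoderm is an extraembryonic tissue that surrounds the epiblast and also forms in aggregates of pluripotent cells.

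Values are log2 signals from robust multi-array averaging (RMA), so a difference of 1 is a 2-fold change, and the signals of different probe sets cannot be set against each other. Each of 19938 genes was represented by 1 probe set. A gene was called higher or lower at an adjusted p under 0.05 (limma, adjusted by Benjamini-Hochberg over all genes) and a log2 difference of at least 1, and the verbs rose and fell are used for called genes alone. With 3 arrays against 3, the number of arrays limits the precision. In bulk RNA, fewer cells of a type and less RNA per cell cannot be told apart.

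The cardiac arrays did not resemble each other as closely as the day 0 arrays did. Across genes, which are not independent replicates, the day 0 arrays correlated with each other at 0.989 to 0.9923. Cardiac replicates 1 and 2 correlated at 0.973, replicates 1 and 3 at 0.9876 and replicates 2 and 3 at 0.986. The SD over arrays was above 1 for 115 genes in the cardiac group and for 7 genes at day 0. Cardiac replicates 1 and 2 were the least alike, and each stood apart in its own way. Replicate 1 held many mesoderm genes at their day 0 level, as described for each group of genes. Replicate 2 had the lowest limma array weight of all 12 arrays (0.28, against 0.93 for replicate 1 and 1.39 for replicate 3) and the most genes away from the day 0 mean. Among the sorted arrays, replicates 2 and 3 read 6.25 and 6.03 for Kdr, which encodes FLK1, against 10.23 on replicate 1. Without the sorted arrays in the fit, 537 genes were called instead of 439, 305 of them higher and 232 lower.

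In the cardiac cultures 251 genes (1.26%) were called higher and 188 (0.943%) lower than in the iPSCs, and the median difference over all genes was -0.05. Without cardiac replicate 1 the counts were 393 (1.97%) and 260 (1.3%), and 397 genes were called both with and without that array. A further 256 genes were called only without it and 42 only with it. Without cardiac replicate 2 the counts were 184 higher and 111 lower. The smallest total was 284, without day 0 replicate 1. Leaving out any 1 of the 6 arrays kept 200 genes called, 112 of them higher and 88 lower. Without regard to the test, the 3 cardiac values lay above all 3 day 0 values for 2553 genes (12.8%) and below them for 3237 (16.2%).

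The 12 largest rises included Ttr and Apob of the visceral endoderm list, Fgf5 of the epiblast list, Eomes and Cyp26a1 of the primitive streak list and Has2 of the lateral plate list. Ttr, which encodes the thyroid hormone and retinol carrier transthyretin, read 5.50, 5.97 and 5.89 on day 0 replicates 1, 2 and 3 and 11.34, 9.56 and 10.04 on the cardiac replicates in the same order. It rose 23-fold (log2 difference 4.52, SE 0.59, adjusted p = 0.00115), and its highest day 0 value lay well below its lowest cardiac value. Cyp26a1, the enzyme that oxidises retinoic acid, read 6.18, 5.99 and 6.85 at day 0 and 10.58, 10.85 and 10.60 in the cardiac arrays. That was a 20.2-fold rise (4.34, SE 0.50, adjusted p = 0.000725), with cardiac arrays close together. Fgf5, a growth factor gene of the epiblast after implantation, read 5.71, 5.29 and 5.81 at day 0 against 8.79, 9.44 and 9.72 and rose 13.1-fold (3.71, SE 0.36, adjusted p = 0.000431). Eomes, a T-box factor of the streak and early mesendoderm, read 6.97, 6.10 and 6.29 at day 0 and 8.48, 11.13 and 10.33 in the cardiac arrays, an 11.5-fold rise (3.53, SE 0.66, adjusted p = 0.00869). The other genes among the 12 largest rises were Clic6, Apob, Amot, Fndc3c1, Pga5, Ctsh, Slc40a1 and Has2, with log2 differences of 3.09 to 3.86. They include an apolipoprotein (Apob), the angiomotin scaffold of cell junctions (Amot), the cellular iron exporter (Slc40a1) and the hyaluronan synthase of the early heart (Has2).

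The 12 largest falls included Nr0b1, Zfp42, Fbxo15, Tcl1, Esrrb and Klf4 of the naive pluripotency list and Fosb of the immediate early list. Fosb, an AP-1 transcription factor gene, read 9.11, 9.55 and 8.88 at day 0 and 6.33, 6.27 and 6.50 in the cardiac arrays. It fell 7.01-fold (-2.81, SE 0.28, adjusted p = 0.000468), with no overlap between groups. Esrrb, a nuclear receptor of the naive network, read 9.78, 10.55 and 10.14 against 8.08, 7.0 and 7.76 and fell 5.83-fold (-2.54, SE 0.44, adjusted p = 0.00564). Klf4, a reprogramming factor, read 9.77, 10.40 and 9.55 against 8.35, 6.96 and 7.72 and fell 4.69-fold (-2.23, SE 0.29, adjusted p = 0.00108). Nr0b1, Zfp42, Fbxo15, Tcl1, Emp1, Jam2, Ptgs2, Laptm5 and Susd2 completed the 12 largest falls, between -2.92 and -2.39. Nr0b1 and Fbxo15 lost their call when any 1 array other than cardiac replicate 1 was left out, and Zfp42 lost it without day 0 replicate 2 or cardiac replicate 2. The highest adjusted p over those fits was 0.179 for Nr0b1, 0.108 for Fbxo15 and 0.066 for Zfp42.

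**Figure D1:**
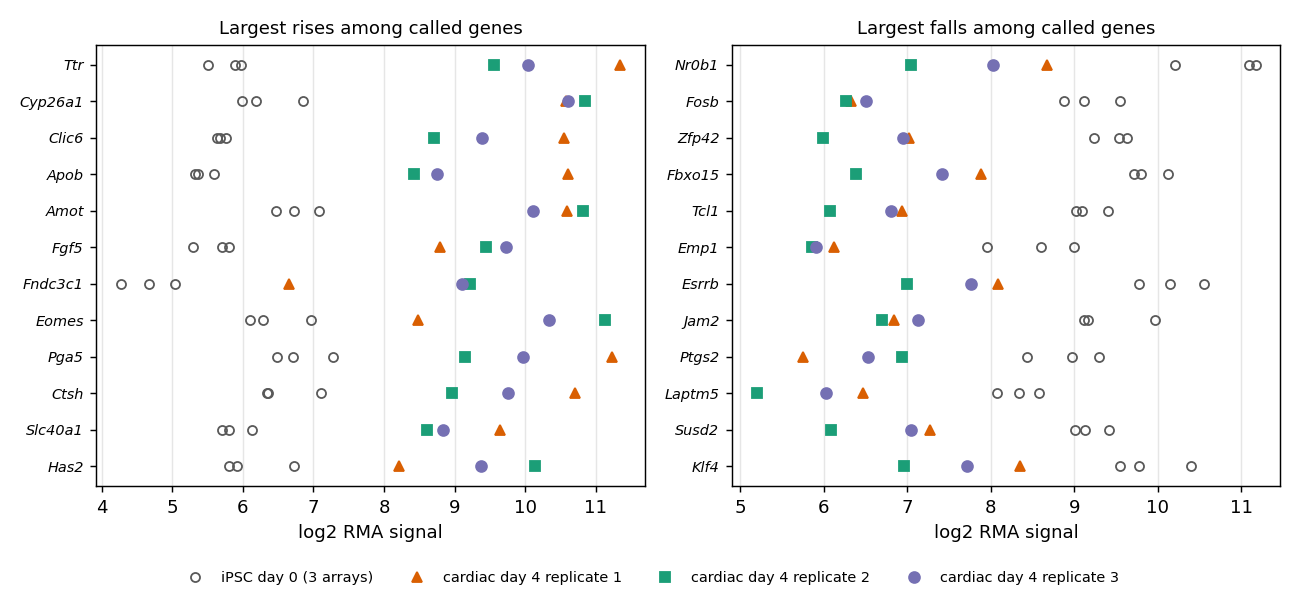
Log2 RMA signal (x axis) of the 12 called genes with the largest rise (left) and the 12 with the largest fall (right) in cardiac day 4 cultures against day 0 iPSCs, 1 row a gene. Open circles are the 3 day 0 arrays, and triangles, squares and filled circles are cardiac replicates 1, 2 and 3. In every row the cardiac arrays lie on 1 side of all day 0 arrays. Replicate 1 is the highest cardiac array for Ttr, Clic6, Apob, Pga5, Ctsh and Slc40a1. It is the lowest for Cyp26a1, Fgf5, Fndc3c1, Eomes and Has2.

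The naive pluripotency network was lower as a group. Of its 19 measured genes (of 22 listed), 14 fell and none rose, the cardiac arrays lay below all day 0 arrays for 17, and the median difference was -1.5 against -0.05 over all genes. Of all genes 0.943% fell and 16.2% lay below day 0 on every cardiac array. Of the 11 transcription factors of the list 9 fell, and of the 8 targets and markers 5 fell. Klf2, another Krüppel-like factor, read 10.58, 11.08 and 10.92 at day 0 and 9.0, 8.35 and 8.82 in the cardiac arrays (-2.14, SE 0.29, adjusted p = 0.00131). Klf5 fell less, by 1.43 on the log2 scale, and Tfcp2l1, another factor of the naive network, fell by 1.93. Nanog, which stabilises self-renewal, read 11.39, 11.63 and 11.23 against 10.21, 10.16 and 10.49 and fell by 1.13 (SE 0.27, adjusted p = 0.0267), a smaller difference than those of Klf2, Klf4 and Esrrb. Fgf4, a growth factor gene of naive cells, fell by 1.5.

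Other naive genes did not pass. Tbx3 read 9.04, 9.38 and 8.86 at day 0 and 7.94, 9.80 and 8.47 in the cardiac arrays, so the groups overlapped. Dppa5a was below day 0 on each cardiac array, at 12.05, 10.85 and 11.26 against 12.64, 12.50 and 12.47 (-1.15, adjusted p = 0.116). All 3 cardiac arrays shared the lower level of the group, with list medians of -1.21, -1.91 and -1.60 against the day 0 mean in replicates 1, 2 and 3. The count of genes called lower depended on the arrays used: it was 8, 6 and 10 without day 0 replicates 1, 2 and 3, and 15, 6 and 9 without cardiac replicates 1, 2 and 3. Nanog lost its call without day 0 replicate 1 or 2 or cardiac replicate 2 or 3, where its adjusted p reached 0.108. Tfcp2l1 (0.124) and Fgf4 (0.0733) lost theirs when any array other than cardiac replicate 1 was left out.

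The core pluripotency factors Pou5f1 and Sox2 were not called lower. Pou5f1, which encodes OCT4, read 11.24, 11.31 and 11.57 at day 0 and 11.00, 10.60 and 10.75 in the cardiac arrays (-0.59, SE 0.23, adjusted p = 0.152). Each cardiac value was below each day 0 value, but the difference was not called. Sox2 read 11.14, 11.41 and 11.14 against 10.37, 9.33 and 10.24 (-1.25, SE 0.61, adjusted p = 0.243). Among the 12 measured genes of the core and general list 1 rose, none fell, and the median difference was -0.50. Of all genes 1.26% rose and 0.943% fell. On every cardiac array 6 of the 12 lay below day 0 and 2 above it, where 16.2% and 12.8% of all genes did. Without the sorted arrays in the fit 2 members were called lower. The gene that rose was Lin28b, an inhibitor of let-7 microRNA processing, at 6.41, 6.68 and 6.84 against 7.50, 8.27 and 7.84 (1.23, SE 0.25, adjusted p = 0.0122). Its call was lost without day 0 replicate 1 or cardiac replicate 2, where the adjusted p reached 0.058.

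Genes of the formative and primed epiblast were higher. Of 19 measured genes 8 rose and 1 fell, 11 lay above day 0 on every cardiac array, and the median difference was 1.42. Of all genes 1.26% rose and 12.8% lay above day 0 on every cardiac array. Beside Fgf5, Otx2, a homeobox factor of the formative state, read 8.32, 7.67 and 8.54 at day 0 and 10.41, 9.94 and 10.13 in the cardiac arrays (1.98, SE 0.36, adjusted p = 0.00652). Sox11 read 6.48, 6.92 and 6.96 against 8.43, 9.36 and 8.74 (2.05, SE 0.28, adjusted p = 0.00134), and its relative Sox4 rose by 1.58. Dnmt3b, the methyltransferase that sets new DNA methylation in the epiblast, read 8.38, 9.14 and 9.81 against 11.20, 10.81 and 10.95 (1.88, SE 0.38, adjusted p = 0.0137). Zic2, a zinc finger factor, read 7.61, 8.20 and 7.52 against 9.27, 10.22 and 10.07 (2.07, SE 0.44, adjusted p = 0.0155). For each of these the groups did not overlap. The member that fell was Epha2, an ephrin receptor gene, at 10.03, 10.13 and 9.93 against 8.63, 8.59 and 8.47 (-1.47, SE 0.31, adjusted p = 0.016).

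The epiblast list was higher on each cardiac array, with medians of 1.07, 1.70 and 1.49 in replicates 1, 2 and 3. Fgf8, a growth factor gene of epiblast and streak, differed within the group: it read 6.98, 6.78 and 7.12 at day 0 and 7.32, 9.10 and 8.95 in the cardiac arrays (1.49, SE 0.38, adjusted p = 0.0343). Its difference was 2.06 without cardiac replicate 1, and the call was lost without any other of the 6 arrays, where the adjusted p reached 0.146. Cdh2, which encodes N-cadherin, read 6.31, 6.22 and 6.70 against 8.09, 10.60 and 9.72 and was not called (3.06, adjusted p = 0.061). The count of list members called higher was 10 without cardiac replicate 1 and 5 or 6 without any other array. Zic2 and Epha2 each lost their call in 4 of those fits (without day 0 replicate 1, cardiac replicate 2 or 3, and day 0 replicate 3 or 2 in turn), with adjusted p up to 0.0716 and 0.0652. Dnmt3b lost it without day 0 replicate 1 (0.0596).

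The microRNA hairpins of the miR-302 cluster showed how the cardiac arrays were divided. The cluster is a chain of 5 hairpins active in pluripotent and epiblast cells, at chr3:127545228-127545807 of GRCm38.p6 on the plus strand, in the order Mir302b, Mir302c, Mir302a, Mir302d and Mir367. Mature sequences from RefSeq are shown because several of the 5 hairpins share a seed. Capitals mark the seed, bases 2 to 8, and the arm from the 3′ side of each hairpin is printed where the table held it.
miR-302b-3p: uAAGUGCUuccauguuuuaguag
miR-302d-3p: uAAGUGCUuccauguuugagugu
miR-302c-3p: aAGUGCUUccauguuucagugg
miR-367-3p: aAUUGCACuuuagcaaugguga
The seed AAGUGCU was common to miR-302b-3p and miR-302d-3p. In miR-302c-3p the letters at bases 2 to 8 were AGUGCUU, which overlap that run with a shift of 1 base. miR-367-3p carried the unrelated seed AUUGCAC. On the other arm, miR-302b-5p (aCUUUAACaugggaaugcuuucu), miR-302c-5p (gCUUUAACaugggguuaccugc) and miR-302d-5p (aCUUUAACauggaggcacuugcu) shared the seed CUUUAAC.

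The array measured the hairpins, not the mature forms. Mir302c read 4.46, 4.13 and 3.39 at day 0 and 5.09, 9.65 and 8.55 on cardiac replicates 1, 2 and 3 (3.77, SE 1.06, adjusted p = 0.0536). Mir302b read 4.16, 4.51 and 3.48 against 5.0, 9.04 and 8.66 (3.52, SE 1.02, adjusted p = 0.0591). Mir367 read 3.22, 3.15 and 2.70 against 3.33, 8.33 and 6.92 (3.17, SE 1.10, adjusted p = 0.110). Replicates 2 and 3 were far above day 0, while replicate 1 was just above the highest day 0 array. All 5 hairpins lay above day 0 on each cardiac array, yet none was called in the full comparison. Without cardiac replicate 1 all 5 were called, with differences of 4.55 to 5.11. The hairpins lie within 580 bases of the genome, so they are not counted as 5 separate observations.

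**Figure D2:**
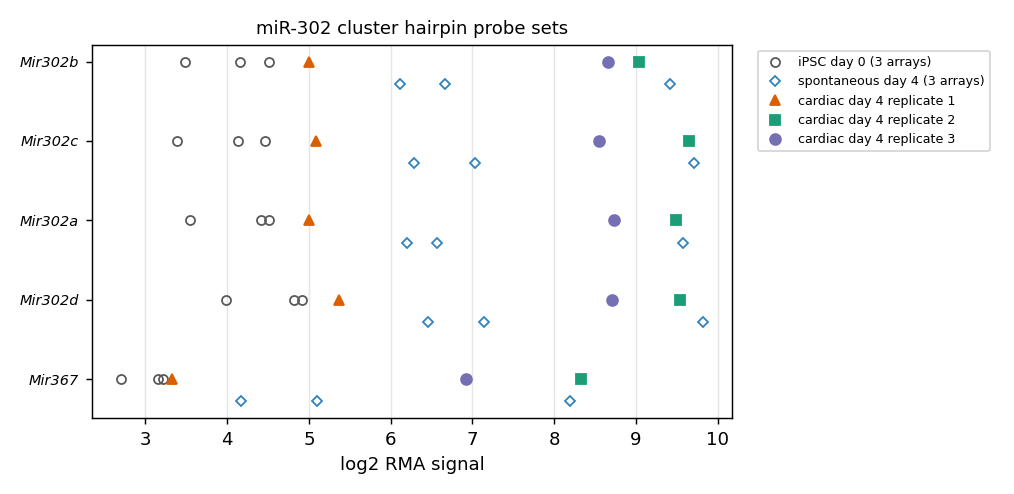
Log2 RMA signal (x axis) of the 5 hairpin probe sets of the miR-302 cluster in genomic order. Open circles are day 0 arrays, the triangle, square and filled circle are cardiac replicates 1, 2 and 3, and the diamonds, drawn just below each row, are the 3 spontaneously differentiated arrays; cardiac replicates 2 and 3 and 1 spontaneous array are high, and for Mir302c they read 9.65, 8.55 and 9.71.

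Other microRNA hairpins gave no call. Of 25 measured microRNA genes of the list (38 listed) none was called, 7 lay above and 6 below day 0 on each cardiac array, and without cardiac replicate 1 the hairpins of the miR-302 cluster made up the 5 calls. Of all genes 12.8% lay above and 16.2% below day 0 on each cardiac array. Mir20a, of a growth-promoting microRNA cluster, read 8.07, 8.94 and 7.34 at day 0 and 6.19, 6.74 and 6.85 in the cardiac arrays (-1.52, adjusted p = 0.0552). Mir363 read 4.99, 5.11 and 4.64 against 6.47, 6.96 and 6.34 (1.68, adjusted p = 0.0516). Both sets of arrays stood apart without overlap, but neither gene passed.

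Many primitive streak and nascent mesoderm genes were high on 2 of the 3 cardiac arrays. Of 24 measured genes 3 rose and none fell, and 9 lay above day 0 on every cardiac array, where 12.8% of all genes did. The genes that rose were Eomes, Fgf8 and Cyp26a1. The list median was -0.09 in replicate 1, 1.85 in replicate 2 and 1.01 in replicate 3. Mixl1, a homeobox factor of the streak, read 5.97, 5.86 and 6.10 at day 0 and 6.22, 11.42 and 10.48 in the cardiac arrays (3.39, SE 1.16, adjusted p = 0.106). Replicate 1 was at the day 0 level, and without it Mixl1 was called with a difference of 4.97. Mesp1, the bHLH factor that marks the earliest cardiac mesoderm, read 5.67, 5.84 and 6.03 against 5.53, 8.36 and 6.96 (1.11, SE 0.67, adjusted p = 0.344), and it was not called without replicate 1 either (1.82). Lhx1 read 6.05, 6.27 and 6.10 against 7.18, 9.49 and 8.71 (2.32, adjusted p = 0.100), and the apelin receptor gene Aplnr read 6.37, 6.61 and 6.27 against 6.20, 9.51 and 8.55 (1.67, adjusted p = 0.254). Without cardiac replicate 1, 10 of the 24 genes were called higher. Without any of the other 5 arrays, 2 were. The count was 6 without the sorted arrays in the fit and 6 with array weights.

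Lateral plate and cardiogenic mesoderm genes followed the same division. Of 26 measured genes 5 rose (Gata4, Tbx20, Bmp2, Has2 and Lpar4) and none fell, and 9 lay above day 0 on every cardiac array. Of all genes 12.8% did so. The list median was -0.08, 1.66 and 0.76 in replicates 1, 2 and 3. Kdr read 5.50, 5.54 and 5.78 at day 0 and 5.42, 10.81 and 9.01 in the cardiac arrays (2.80, SE 1.17, adjusted p = 0.182). Replicate 1 lay below all day 0 arrays, and without it the difference was 4.30 and called. Pdgfra, the other receptor used to sort cardiac progenitors, read 8.75, 9.14 and 8.81 at day 0 and 9.42, 10.26 and 9.60 in the cardiac arrays. Its cardiac values were all higher, but the difference of 0.86 (SE 0.55, adjusted p = 0.370) was not called.

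Some genes of heart-forming mesoderm rose, with all 3 cardiac arrays above day 0. Has2 read 5.92, 5.81 and 6.72 at day 0 against 8.21, 10.14 and 9.37 (3.09, SE 0.49, adjusted p = 0.0033), an 8.51-fold rise. Bmp2, a ligand that acts in early heart induction, read 5.05, 5.43 and 6.19 against 7.10, 8.23 and 7.35 (2.01, SE 0.32, adjusted p = 0.00338), a 4.02-fold rise. Both kept their call without any single array. Gata4, a zinc finger factor of cardiac mesoderm and of endoderm, read 8.22, 8.83 and 8.45 against 9.88, 9.79 and 9.47 (1.21, SE 0.26, adjusted p = 0.0163). Tbx20, a T-box factor of the heart, read 5.0, 5.10 and 5.40 against 6.83, 8.68 and 6.98 (2.33, SE 0.53, adjusted p = 0.0228). Gata4 lost its call without day 0 replicate 1 or 3 or cardiac replicate 2 (adjusted p up to 0.0732), and Tbx20 without any day 0 array or cardiac replicate 2 (up to 0.0892). Cxcr4, a chemokine receptor of migrating mesendoderm, read 6.74, 6.29 and 7.06 against 7.55, 10.87 and 9.72 and was not called (2.68, adjusted p = 0.0761). The list count was 12 without cardiac replicate 1 and 3 to 5 without any other array.

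The heart field list and the list of sarcomere and excitation genes gave 1 call at day 4. Of 21 measured heart field factors 1 rose, none fell, and the median difference was 0.09. Of 24 sarcomere and excitation genes none was called in either direction, and the median was -0.15. Over all genes 1.26% rose and 2.2% were called in either direction, so few calls in lists of this size do not set them apart. Without the sorted arrays in the fit the counts called higher were 2 and 1. Nkx2-5, a homeobox factor of heart progenitors, read 7.63, 7.57 and 7.43 at day 0 and 7.51, 7.10 and 7.42 in the cardiac arrays (-0.20, SE 0.16, adjusted p = 0.462). Tnnt2, cardiac troponin T, read 6.87, 6.76 and 6.81 against 6.41, 6.27 and 6.62 (-0.38, SE 0.14, adjusted p = 0.140). Mef2c, a muscle transcription factor, differed by 0.04 and Myh6, a cardiac myosin heavy chain, by -0.20. Tpm1, a tropomyosin also present outside muscle, read 8.45, 8.36 and 8.25 against 8.86, 10.03 and 9.84 (1.22, adjusted p = 0.200). The heart field member that rose was Gata4, which the visceral endoderm list holds too. Tbx20, which rose among the lateral plate genes, is not in these lists.

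Genes for secreted and uptake proteins of visceral endoderm were higher, and highest on the array that held many mesoderm genes at the day 0 level. Of 25 measured visceral and primitive endoderm genes 10 rose and none fell, and 17 lay above day 0 on every cardiac array. Of all genes 1.26% rose and 12.8% lay above day 0 in this way. Among the 14 secretory genes 9 rose, 12 lay above day 0 on each array, and the median difference was 1.91, while among the 11 factors and matrix genes Gata4 alone rose. Secretory medians were 2.81, 1.05 and 1.64 in cardiac replicates 1, 2 and 3. Apob, the main protein of low density lipoprotein, read 5.32, 5.36 and 5.59 at day 0 and 10.61, 8.43 and 8.75 in the cardiac arrays (3.84, SE 0.59, adjusted p = 0.00262), a 14.3-fold rise. Apoa1, the main protein of high density lipoprotein, read 6.55, 6.50 and 6.47 against 10.21, 8.0 and 8.85 (2.51, SE 0.53, adjusted p = 0.0151). Lrp2, the uptake receptor megalin, read 7.24, 7.69 and 8.03 against 11.03, 9.58 and 9.85 (2.50, SE 0.60, adjusted p = 0.0289). Replicate 1 was the highest array for each of these, as it was for Ttr.

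Further secretory genes showed the same order of arrays. Rbp4, the retinol carrier, read 6.26, 5.84 and 5.76 at day 0 and 9.37, 6.60 and 7.56 in the cardiac arrays (1.89, SE 0.49, adjusted p = 0.038). Afp, alpha-fetoprotein, read 5.41, 5.32 and 5.59 against 7.24, 6.26 and 6.58 (1.25, SE 0.20, adjusted p = 0.00294). Spink1, a secreted protease inhibitor, read 4.99, 5.01 and 5.36 against 7.96, 6.88 and 6.92 (2.13, SE 0.30, adjusted p = 0.00168). Groups did not overlap in any of the 3 genes. Hnf4a, a nuclear receptor of endoderm, read 6.94, 6.93 and 7.01 against 9.34, 7.41 and 7.76 and was not called (1.21, adjusted p = 0.0741). Sparc, a matrix gene that parietal endoderm makes in quantity, differed by 0.25 and was not called. Without cardiac replicate 1 the list count was 8, with Afp at a difference of 0.98, and it was 5 to 11 without any other array. Apoa1 lost its call without day 0 replicate 1 or 2 (adjusted p up to 0.0547), Rbp4 without any day 0 array or cardiac replicate 3 (up to 0.121), and Lrp2 in each of the 6 fits (up to 0.105).

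**Figure D3:**
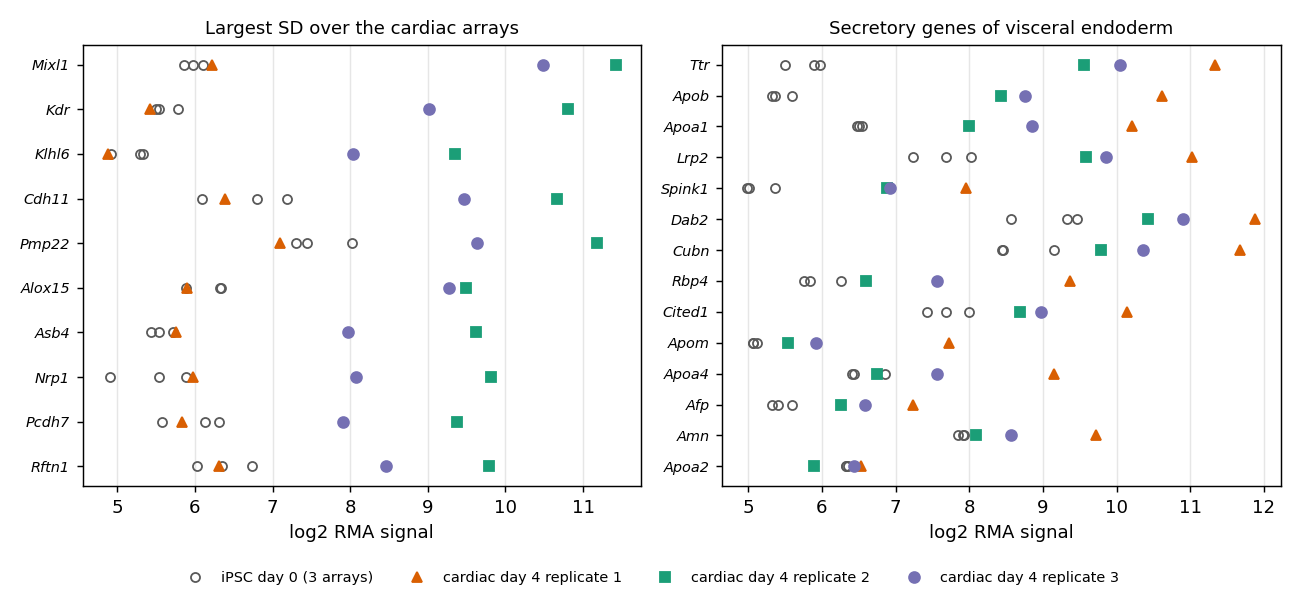
Log2 RMA signal (x axis) of the 10 genes with the largest SD over the cardiac arrays (left) and of the 14 measured secretory genes of visceral endoderm (right), with day 0 arrays as open circles and cardiac replicates 1, 2 and 3 as triangle, square and filled circle. On the left the triangle lies among or next to the day 0 arrays and the other 2 cardiac arrays lie to the right, as for Kdr (5.42 against 10.81 and 9.01); on the right the triangle is the highest cardiac array, as for Ttr (11.34 against 9.56 and 10.04).

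The 10 genes that varied most over the cardiac arrays were Mixl1, Kdr, Klhl6, Cdh11, Pmp22, Alox15, Asb4, Nrp1, Pcdh7 and Rftn1, chosen for that spread, so their values are a description. Cdh11, a cadherin of mesenchyme, read 7.18, 6.09 and 6.80 at day 0 and 6.39, 10.67 and 9.46 in the cardiac arrays. Nrp1, a co-receptor for VEGF and semaphorins, read 5.54, 4.90 and 5.89 against 5.98, 9.82 and 8.08. Pmp22, a membrane protein known from myelin, read 8.02, 7.44 and 7.30 against 7.10, 11.18 and 9.63. In each of the 10 genes replicate 2 was the highest cardiac array and replicate 1 the lowest.

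Some genes of the definitive endoderm list were higher too, among them Otx2, which the epiblast list also holds. Among 15 measured definitive endoderm genes Cer1, Tmprss2 and Otx2 rose, none fell and 10 lay above day 0 on each cardiac array. Of all genes 12.8% did so. Without the sorted arrays in the fit 5 members were called higher. Cer1, a secreted Nodal and BMP antagonist of anterior endoderm, read 4.97, 5.18 and 4.84 at day 0 and 7.08, 7.54 and 7.30 in the cardiac arrays (2.31, SE 0.49, adjusted p = 0.0166), although its call was lost in 4 of the 6 fits with 1 array left out (adjusted p up to 0.0694; without day 0 replicate 1 or 3 or cardiac replicate 2 or 3). Tmprss2, a surface protease, read 6.51, 5.99 and 6.27 against 9.24, 7.59 and 7.75 (1.93, SE 0.35, adjusted p = 0.00719). Replicate 1 was its highest array, as it was for Ttr and Apob. The part of visceral endoderm in these rises was not tested. Foxa2, a forkhead factor shared by endoderm and axial mesoderm, differed by 0.55 and was not called.

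Of 21 surface ectoderm and epithelial genes 6 rose and none fell, where 1.26% of all genes rose. Krt18, a simple epithelial keratin, read 7.95, 7.61 and 7.74 at day 0 and 10.60, 10.03 and 10.06 in the cardiac arrays (2.46, SE 0.51, adjusted p = 0.0148). Its partner Krt8 rose by 1.71 and the tight junction gene Cldn6 by 2.43. Dsp, the desmosome protein desmoplakin, read 7.27, 7.29 and 7.27 against 8.84, 9.63 and 8.81 (1.82, SE 0.24, adjusted p = 0.00126), and Esrp1, a splicing regulator of epithelial cells, rose by 1.88 and Rab25, a small GTPase of epithelial traffic, by 1.90. Cdh1, which encodes E-cadherin, differed by 0.17 and was not called. Epithelial genes are also expressed in visceral endoderm, whose markers moved in the same samples; its part in these rises was not tested. Krt8 lost its call without day 0 replicate 1 or 2 or cardiac replicate 2 (adjusted p up to 0.0649), Krt18 without day 0 replicate 2 (0.0594) and Cldn6 without day 0 replicate 2 (0.0507).

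Of 25 endothelial and haemogenic genes 1 rose and 2 fell, where 2.2% of all genes were called in either direction. Flt1, a VEGF receptor, read 6.41, 6.58 and 6.22 at day 0 and 7.95, 8.32 and 8.18 in the cardiac arrays (1.75, SE 0.26, adjusted p = 0.00223), a 3.36-fold rise with all 3 cardiac arrays above day 0. Pecam1, an adhesion molecule that pluripotent cells carry too, read 8.85, 8.39 and 7.81 against 7.40, 5.45 and 6.27 and fell by 1.98 (SE 0.39, adjusted p = 0.0106). Cd34 read 8.15, 7.16 and 8.77 against 6.46, 5.94 and 6.25 and fell by 1.81 (SE 0.30, adjusted p = 0.00383). Etv2, the ETS factor that starts the endothelial and blood programme, read 6.17, 6.39 and 6.52 against 6.30, 8.48 and 7.30, with cardiac replicate 1 inside the day 0 range, and was not called. Pecam1 lost its call without day 0 replicate 1 (adjusted p = 0.0535).

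Germ cell, neural, paraxial and trophectoderm lists held 1 to 3 called genes each, where 2.2% of all genes were called. Of 15 germ cell genes 2 fell: Dazl, an RNA-binding protein, read 8.30, 7.36 and 6.54 at day 0 and 5.83, 4.81 and 5.26 in the cardiac arrays (-2.10, SE 0.34, adjusted p = 0.00383), and Tex14 fell by 1.36. Of 18 neuroectoderm genes Nes rose by 1.56 and Neurod1 fell by 1.14, while Sox1 and Pax6 differed by -0.48 and -0.94 and were not called. Of 14 paraxial mesoderm genes Tcf15 fell (-1.27), and of 14 trophectoderm genes Eomes and the keratin genes Krt8 and Krt18 rose, while Cdx2 differed by 0.56 without a call. Nes and Tcf15 each lost their call in 3 of the 6 fits (adjusted p up to 0.0589 and 0.0597), both without cardiac replicate 2 or 3 or day 0 replicate 3, and Neurod1 lost it without cardiac replicate 2.

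Fibroblasts can serve as feeder cells for iPSCs. Among 20 measured genes of fibroblasts and feeder cells 2 fell, none rose and the other 18 were not called; 11 lay below day 0 on every cardiac array, as 16.2% of all genes did. Dcn, the proteoglycan decorin, read 8.39, 6.95 and 8.27 at day 0 and 6.13, 5.78 and 6.33 in the cardiac arrays (-1.79, SE 0.29, adjusted p = 0.00391). Col1a2, a chain of type I collagen, read 8.63, 7.76 and 8.57 against 6.99, 6.93 and 7.35 (-1.23, SE 0.23, adjusted p = 0.00825). The mean signal of the whole list was 6.52 to 6.95 on the day 0 arrays and 6.21 to 6.37 on the cardiac arrays, and day 0 replicate 2 was lower than the other day 0 arrays for both genes. Lum, another fibroblast proteoglycan, had signals of 3.12 to 3.33 on all 6 arrays. Blood and immune markers gave no call in 11 measured genes, with list means of 5.32 to 5.43 at day 0 and 5.07 to 5.36 in the cardiac arrays, and the leukocyte marker Ptprc differed by -0.07. The part of fibroblasts or feeder cells in the genes that fell was not tested.

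Some genes of LIF signalling and some immediate early genes fell. Of 12 genes of the LIF and STAT3 list 3 fell, none rose, and 9 lay below day 0 on each cardiac array. Of all genes 16.2% did so. Socs3, the feedback inhibitor that STAT3 induces, read 9.79, 8.89 and 9.16 at day 0 and 7.36, 6.94 and 7.70 in the cardiac arrays (-1.94, SE 0.24, adjusted p = 0.000902). The other members that fell, Klf4 and Tfcp2l1, belong to the naive network too. Stat3 itself differed by -0.74 (adjusted p = 0.014), under the minimum for a call, and Il6st, the shared receptor chain gp130, by -0.41. Of 20 immediate early genes 4 fell, none rose, and 13 lay below day 0 on each array, where 16.2% of all genes did. Fos read 9.34, 9.28 and 8.67 at day 0 and 6.88, 6.93 and 7.05 in the cardiac arrays (-2.14, SE 0.21, adjusted p = 0.000431), a 4.42-fold fall. Egr1, a zinc finger factor that follows ERK activity, read 8.83, 8.14 and 8.30 against 6.54, 7.27 and 6.85 (-1.54, SE 0.21, adjusted p = 0.00139). Nr4a1 fell by 1.10, a call that was lost without any day 0 array or cardiac replicate 3 (adjusted p up to 0.066). Jun differed by -0.62 and Dusp1 by -1.17 (adjusted p = 0.051) without a call.

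Fos and Fosb fell together, and their promoters are shown for the 250 bases before the RefSeq start (GRCm38.p6). Capitals mark TGACG, the leading letters of the cyclic AMP response element, searched on both strands; the motif was chosen after these windows had been read. Fos lies at chr12:85473640-85473889 on the plus strand and Fosb at chr7:19310046-19310295 on the minus strand.
Fos: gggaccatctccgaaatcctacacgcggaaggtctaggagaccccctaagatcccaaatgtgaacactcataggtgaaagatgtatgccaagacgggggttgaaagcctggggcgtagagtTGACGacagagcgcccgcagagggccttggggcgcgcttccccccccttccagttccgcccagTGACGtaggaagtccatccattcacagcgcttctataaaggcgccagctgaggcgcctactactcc
Fosb: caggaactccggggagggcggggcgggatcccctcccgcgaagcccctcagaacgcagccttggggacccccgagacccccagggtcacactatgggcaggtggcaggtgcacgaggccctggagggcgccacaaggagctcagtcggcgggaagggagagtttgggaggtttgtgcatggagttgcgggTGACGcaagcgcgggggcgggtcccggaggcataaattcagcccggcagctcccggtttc
The Fos window held 2 copies and the Fosb window 1, and that of Nr4a1, at chr15:101266596-101266845 on the plus strand, held 4. The letters occurred in 5836 of 32851 promoter windows of this length (17.8%). The CArG box, the letters of serum response factor sites, was in 482 windows (1.47%) and in none of these 3. Bases farther upstream were not searched, and the window of Egr1, which fell too, is not shown. The absence therefore holds for these 3 windows alone. A match is a description of letters and not a site.

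The FGF, Nodal, BMP and WNT lists held 2 to 4 called genes each, where 2.2% of all genes were called in either direction. Of 29 FGF and ERK feedback genes 2 rose and 2 fell: the ligand genes Fgf5 and Fgf8 rose, and the ligand gene Fgf4 fell, at 9.94, 9.65 and 9.90 on day 0 arrays against 9.22, 7.55 and 8.22. The other member that fell was Egr1. Among feedback inhibitors Dusp6 differed by 0.16 and was not called. Of 10 Nodal genes the antagonist Cer1 and Foxh1, the DNA-binding partner of SMAD2, rose, and Pcsk6, a convertase that cleaves the Nodal precursor, fell. Pcsk6 read 8.65, 8.81 and 8.50 at day 0 and 7.58, 6.92 and 7.53 in the cardiac arrays (-1.31, SE 0.21, adjusted p = 0.00338). Foxh1 rose by 1.15 but lost its call in 4 of the 6 fits (without day 0 replicate 1 or 2 or cardiac replicate 2 or 3, adjusted p up to 0.093). Nodal itself differed by -0.39 and was not called.

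Of 43 BMP and TGF-beta genes Bmp2 and Cer1 rose and none fell, and 11 lay above day 0 on each cardiac array. Of all genes 12.8% did so. Unlike the ligand gene Bmp2, Bmp4 read 8.29, 8.71 and 9.08 at day 0 and 7.16, 9.44 and 8.01 in the cardiac arrays, with overlap, and was not called (-0.49). Among receptors Bmpr1a differed by 0.66 (adjusted p = 0.0166), under the minimum for a call, and among signal transducers Smad1 read 7.26, 7.33 and 7.04 against 7.89, 9.79 and 8.92 (1.66, adjusted p = 0.0752). Of 49 WNT genes Fzd7 and Cer1 rose and none fell, and 16 lay above day 0 on each cardiac array, where 12.8% of all genes did. Fzd7, a WNT receptor gene, read 8.88, 9.09 and 9.25 against 10.21, 10.47 and 10.08 (1.18, SE 0.25, adjusted p = 0.0158), but its call was lost without day 0 replicate 1 or 2 or cardiac replicate 2 (up to 0.0718). Ligand genes Wnt3 and Wnt8a differed by 1.28 and 1.25, the feedback gene Axin2 by 1.07 and the antagonist Dkk1 by 1.07, all without a call. Without cardiac replicate 1 the counts called higher were 10 for WNT and 7 for BMP and TGF-beta. Without the sorted arrays in the fit they were 4 and 4.

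Vascular, ephrin and retinoid genes included a few clear rises, where 1.26% of all genes rose. Of 18 VEGF, PDGF and KIT genes Flt1 rose and no gene fell, and 3 were called higher without cardiac replicate 1. Of 24 apelin, CXCR4 and guidance genes 2 rose and 1 fell: Epha1, an ephrin receptor gene, read 6.19, 6.05 and 6.66 at day 0 and 7.89, 8.90 and 8.91 in the cardiac arrays (2.27, SE 0.38, adjusted p = 0.00439). The ephrin ligand gene Efna1 rose by 1.15, a call lost without day 0 replicate 2 or 3 or cardiac replicate 2 (up to 0.0926), and Epha2 fell. Without the sorted arrays in the fit 5 genes of this list were called higher and 2 lower. Apela, a ligand of the apelin receptor, read 8.90, 9.16 and 8.95 against 7.67, 7.83 and 8.07, lower on each cardiac array but not called (-1.15, adjusted p = 0.321). Of 17 retinoic acid genes 2 rose: Cyp26a1, which removes retinoic acid, and Rdh10, which acts in making it. Rdh10 read 7.50, 7.90 and 7.44 against 9.64, 8.36 and 8.58 (1.25, SE 0.27, adjusted p = 0.0173), with replicate 1 highest, and it lost its call without that array or day 0 replicate 1 or 3 (up to 0.0683). No Notch gene of 19 was called, and 2 were called higher without cardiac replicate 1.

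Lpar4 was higher on all 3 cardiac arrays. It read 5.34, 6.10 and 6.37 at day 0 and 7.31, 9.15 and 8.65 on cardiac replicates 1, 2 and 3, a 5.41-fold rise (2.44, SE 0.42, adjusted p = 0.00534). Cardiac replicate 1 lay between the day 0 arrays and the other 2 cardiac arrays, and without it the difference was 2.97. By size Lpar4 was the 23rd of the genes called higher, and it was called without any single array (adjusted p at most 0.0306). Among the other receptors for lysophosphatidic acid, Lpar6 rose, at 7.73, 7.65 and 7.51 against 8.47, 9.32 and 8.92 (1.27, SE 0.27, adjusted p = 0.0172), although it lost its call when any array other than cardiac replicate 1 was left out (up to 0.0779). Lpar1, Lpar2 and Lpar3 differed by 0.29, 0.33 and 0.28, and none was called.

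Of 8 enzymes of lysophospholipid turnover 1 fell. Liph, a lipase that releases lysophosphatidic acid from phosphatidic acid, read 8.63, 8.15 and 8.19 at day 0 and 7.59, 5.65 and 6.71 in the cardiac arrays and fell by 1.68 (SE 0.43, adjusted p = 0.038). That call was lost when any array other than cardiac replicate 1 was left out (up to 0.146). Plpp1, a phosphatase that degrades the lipid outside the cell, differed by -1.0 (adjusted p = 0.0209), just under the minimum for a call. None of the 5 receptors for sphingosine 1-phosphate was called. In all 18 measured genes of the list 2 rose and 1 fell, where 2.2% of all genes were called in either direction. The genes whose values over the 12 arrays correlated best with those of Lpar4 were Thoc7 (0.986), Gtf2i (0.981), Eif4g3 (0.981), Hnrnpll (0.974) and Pcbp4 (0.974); the 12 points share 4 groups, and these are descriptions.

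Of 10 DNA methylation genes Dnmt3b rose, Tet1 and Tet2, which oxidise methylated cytosine, fell, the other 7 were not called, and the list median was -0.01. Of all genes 1.26% rose and 0.943% fell. Tet2 read 8.47, 8.79 and 8.29 at day 0 and 7.44, 6.10 and 6.26 in the cardiac arrays (-1.91, SE 0.28, adjusted p = 0.00213). Tet1 read 10.15, 10.05 and 10.10 against 9.55, 8.66 and 8.70 (-1.13, SE 0.30, adjusted p = 0.0456), and lost its call when any array other than cardiac replicate 1 was left out (up to 0.174). Of 18 imprinted genes 3 rose and none fell, where 1.26% of all genes rose. Peg3, a zinc finger gene, read 6.94, 7.89 and 7.60 against 9.75, 11.19 and 9.86 (2.80, SE 0.43, adjusted p = 0.0028), a 6.95-fold rise. Igf2, a fetal growth factor, rose by 1.97 and Grb10, an adaptor that restrains growth signalling, by 1.73, and all 3 kept their call without any single array.

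Of 34 hyaluronan and matrix genes 3 rose and 3 fell, where 2.2% of all genes were called in either direction. Has2 rose, and so did the heparan sulfate proteoglycan genes Gpc3 and Gpc4; Bgn, Col1a2 and the basement membrane gene Nid1 fell. Gpc3 read 9.26, 8.92 and 8.42 at day 0 and 11.52, 11.55 and 10.99 in the cardiac arrays (2.49, SE 0.32, adjusted p = 0.00108), a 5.61-fold rise. Bgn, the proteoglycan biglycan, read 8.82, 7.38 and 7.87 against 5.68, 6.76 and 5.92 (-1.90, SE 0.38, adjusted p = 0.0117), and Tnc, the matrix protein tenascin C of the mesenchymal transition list, fell by 1.22. Vim and Fn1, which mark mesenchymal cells, differed by -0.60 and 0.33 and were not called. Gpc4 lost its call without day 0 replicate 1 or 2 or cardiac replicate 3 (up to 0.0862), Nid1 without day 0 replicate 1 or 2 or cardiac replicate 2 or 3 (up to 0.0778), and Bgn without day 0 replicate 1 (0.0504).

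General cell functions gave few or no calls. No gene was called among 17 of G1 control, 19 of G2/M and mitosis, 21 of hypoxia and glycolysis, 13 of cholesterol synthesis, 20 of the respiratory chain, 13 of p53 and cell death and 17 of the HOX and CDX families. List medians lay between -0.22 and 0.14. Over all genes 2.2% were called in either direction. Cdk4, a kinase of the G1 phase, differed by 0.43 and Mycn, which drives growth, by -0.59. Without cardiac replicate 1, 3 genes of G1 control and 1 gene each of the hypoxia and p53 lists were called.

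**Figure D4:**
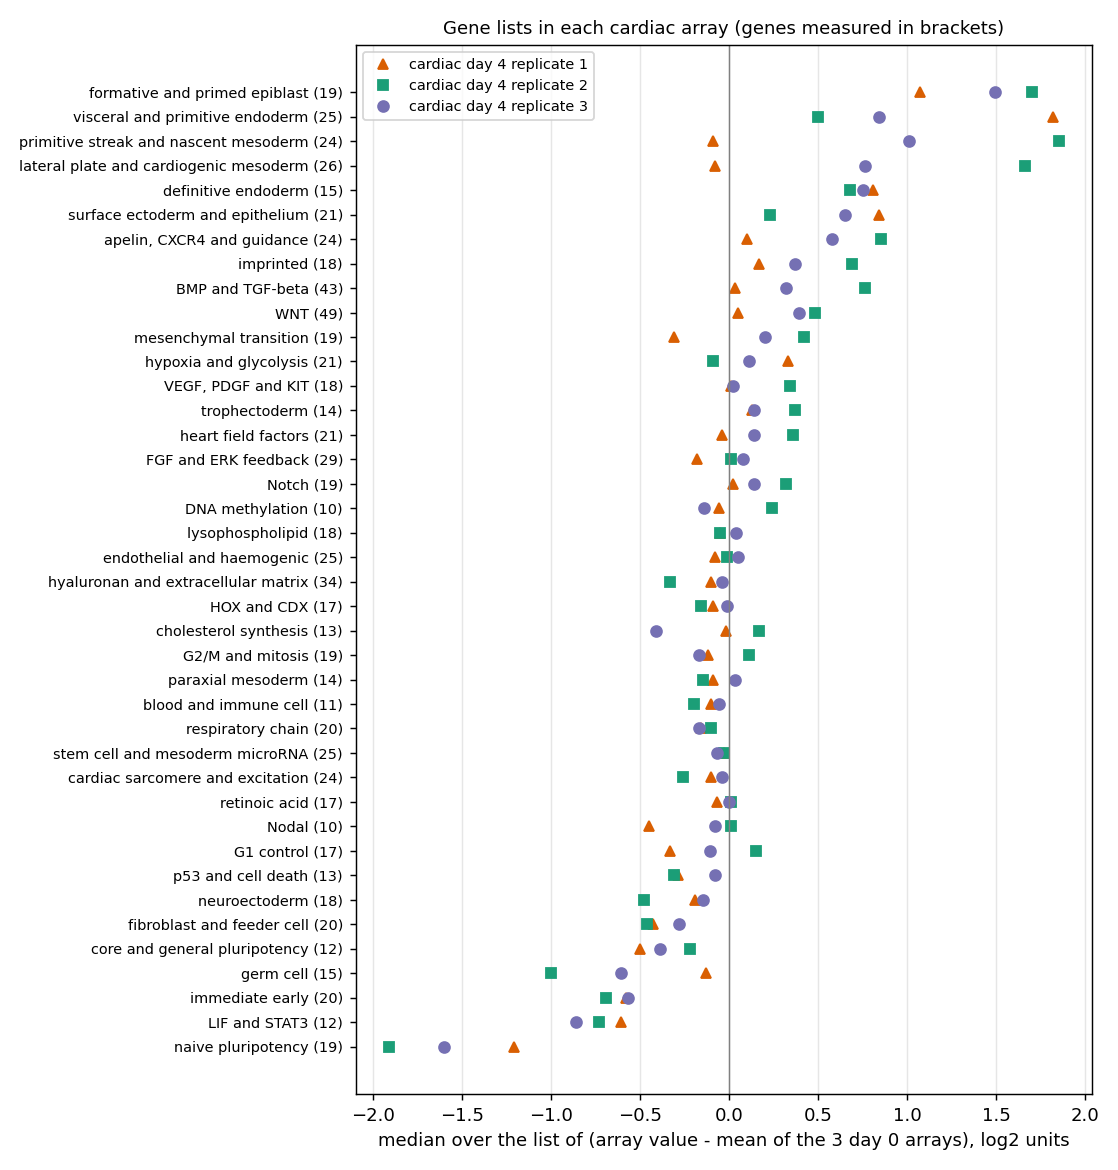
Median over each of 40 gene lists (rows; genes measured in brackets) of the difference between a cardiac array and the mean of the 3 day 0 arrays, in log2 units, with cardiac replicates 1, 2 and 3 as triangle, square and filled circle. Naive pluripotency is lowest on each array (-1.21, -1.91 and -1.60), while primitive streak (-0.09, 1.85 and 1.01) and visceral endoderm (1.82, 0.50 and 0.84) order the 3 arrays in opposite ways.

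Each cardiac array set against the mean of the day 0 arrays gives the division in counts. Differences of at least 1 upward were found in 386 genes (1.94%) on replicate 1, 795 (3.99%) on replicate 2 and 361 (1.81%) on replicate 3. Downward there were 178 (0.893%), 416 (2.09%) and 307 (1.54%). These counts compare single arrays with a mean and have no test.

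The directed cultures were last set against the spontaneously differentiated cells at day 4, a contrast of the directed protocol with differentiation labelled as spontaneous. No gene was called in either direction (limma, smallest adjusted p = 0.762), and 743 genes (3.73%) had an unadjusted p under 0.05. Without the sorted arrays in the fit 1167 genes had such a p. Lpar4 read 8.79, 8.69 and 8.77 in the spontaneous arrays, within the cardiac range of 7.31 to 9.15, and the cardiac minus spontaneous difference was -0.38 (95% interval -1.29 to 0.53). Kdr read 9.83, 10.71 and 10.27 and Mixl1 10.84, 11.13 and 11.33 in the spontaneous arrays. Their differences were -1.86 (-4.40 to 0.68) and -1.73 (-4.24 to 0.78), with wide intervals. The cardiac means of both genes include replicate 1, which held them near the day 0 level. Naive factors gave differences nearer to 0: Klf4 differed by 0.06, Esrrb by 0.19 and Nanog by 0.28. A missed threshold does not show that both kinds of culture are alike.

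Of the 25 visceral endoderm genes 8 had an unadjusted p under 0.05, where 3.73% of all genes did, with a list median of 0.47 toward the cardiac arrays. Cardiac replicate 1 was the highest here: against day 0 the secretory medians were 2.81, 1.05 and 1.64 on replicates 1, 2 and 3. Ttr read 8.45, 7.57 and 7.08 in the spontaneous arrays, below the 3 cardiac values, with a difference of 2.61 (1.33 to 3.90). Apob read 7.68, 6.01 and 5.69, with a difference of 2.80 (1.54 to 4.07), and Apoa1 read 7.27, 6.33 and 6.22, with a difference of 2.41 (1.28 to 3.55). Afp differed by 1.19 (0.77 to 1.61). None of these passed after adjustment over all genes, where the adjusted p was 0.762 for Afp and 0.999 for the other genes of the plot. With array weights in the limma fit, 3 genes were called higher: Afp (1.29, adjusted p = 0.0198), Apoa1 (2.78, 0.0292) and Slc34a2, a phosphate transporter gene (1.52, 0.0292). That fit gave cardiac replicate 2, the lowest cardiac array for Afp and Apoa1, a weight of 0.28, against 0.93 for replicate 1 and 1.39 for replicate 3. Otx2 was on the same side, at 1.18 (0.41 to 1.95), and Tbx20 on the other, at -1.19 (-2.33 to -0.04). The miR-302 hairpins were divided among the spontaneous arrays as well: Mir302c read 9.71, 6.29 and 7.03, and the difference was 0.09 (-2.21 to 2.38).

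Of the 40 lists, hypoxia and glycolysis held the most such values: 13 of 21 genes had an unadjusted p under 0.05, where 3.73% of all genes did. None was called, and the median cardiac minus spontaneous difference was 0.48. The list mean was 9.83 to 10.48 on the cardiac arrays and 9.36 to 9.85 on the spontaneous arrays, so the arrays overlapped. Against day 0 the list medians were 0.33, -0.09 and 0.11 on cardiac replicates 1, 2 and 3. Bnip3, a mitophagy gene induced by low oxygen, read 9.77, 8.67 and 7.56 in the spontaneous arrays and 11.12, 9.84 and 10.30 in the cardiac arrays, with a difference of 1.75 (0.39 to 3.11). All 3 cardiac values lay above the spontaneous ones. Pfkfb3, which sets the pace of glycolysis, differed by 0.93 (0.26 to 1.60), and Ldha, lactate dehydrogenase A, by 0.02 (-0.38 to 0.42). Of the 26 lateral plate genes 8 had such a p, with a median of -0.59.

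**Figure D5:**
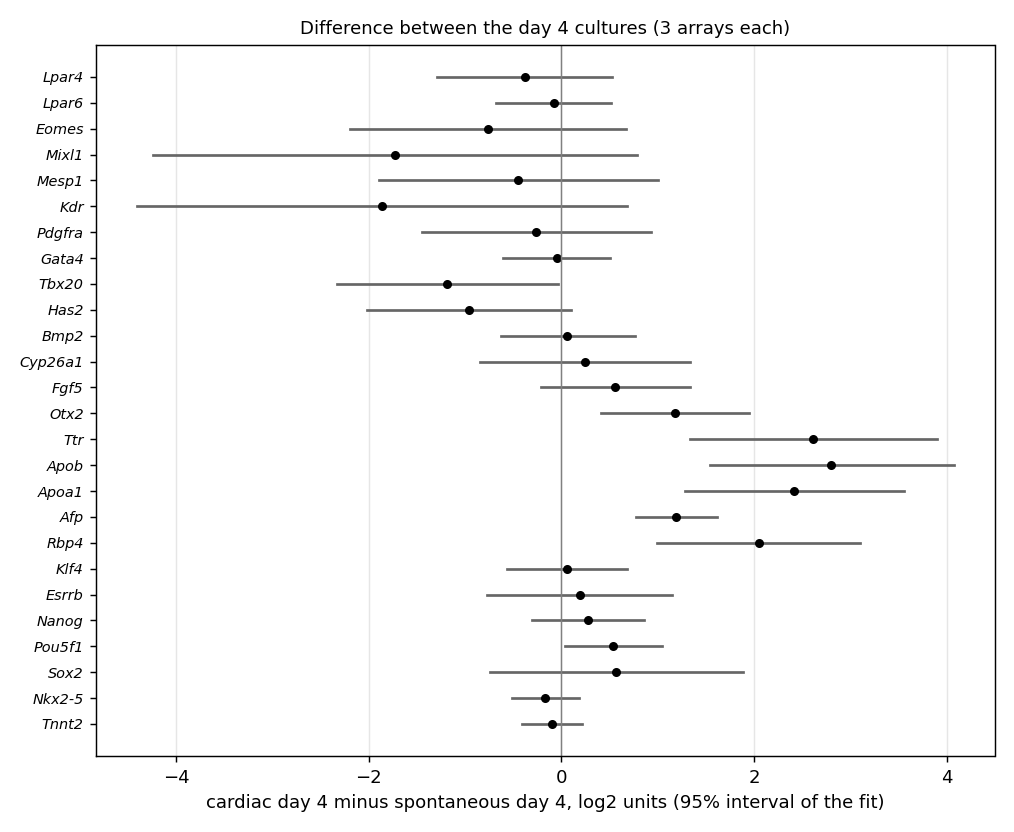
Difference between the mean of the 3 cardiac and the mean of the 3 spontaneously differentiated arrays at day 4 (x axis, log2 units) for 26 genes, with 95% intervals from limma that are not adjusted for the number of genes. Kdr and Mixl1 have wide intervals that cross 0 (-4.40 to 0.68 and -4.24 to 0.78), while Ttr, Apob, Apoa1, Afp, Rbp4, Otx2 and Pou5f1 lie above 0 and Tbx20 below it; none was called after adjustment.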

How the data were processed

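Total RNA of 12 samples was measured on Affymetrix mouse gene arrays. The authors deposited log2 values; per the submitters' processing notes, RMA and Affymetrix Expression Console 1.3.1 were used to make them. That the scale is log2 follows from the range of the values, 1.87 to 13.87. For the array annotation, no genome build is named in the sources used. Of 35557 probe sets, the platform annotation pairs 21789 with 1 gene symbol and 1621 with several, and 12147 are unlisted; among the probe sets of a symbol, the 1 with the highest mean over the 12 arrays was kept, which left 19938 genes. Median signals of the arrays were 6.09 to 6.26 over all probe sets.

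limma 3.58.1 in R 4.3.3 fitted the 4 group means to all 12 arrays with an intensity trend (degrees of freedom: 8 residual, 5.01 from the prior), with Benjamini-Hochberg adjustment over all genes. An exact permutation test of 3 arrays against 3 cannot give a two-sided p below 0.1 and was not used. The procedure was tested on simulated data. Older symbols in the lists were resolved through RefSeq (5 genes).

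Genes named were Lpar4, Kdr, Pdgfra and stage markers, the 12 largest called rises and falls without predicted loci or small RNAs, in every list the called members of largest difference (4 at most) and the brightest uncalled ones (2 at most), the 10 genes with the largest SD over the cardiac arrays and the 5 most like Lpar4. Further list members were named after their values were seen. The samples compared and the 40 gene lists (808 of 864 entries measured) were chosen with earlier results of these data known. Alternatives were other normalizations, array weights, prior variances, filters, thresholds, arrays in the fit and a replicate block.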

Additional observations from a re-analysis of the deposited data

Results flagged for a closer look

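Probe sets that the platform annotation does not pair with a single gene symbol were left out of the comparisons, and a signal was looked for among them. Of 13768 such probe sets 3 were higher and 4 lower in the cardiac cultures than at day 0 (limma, adjusted over these probe sets). The largest difference upward was 2.14 (SE 0.23, adjusted p = 0.00704), from a mean of 7.67 to 9.81, and the largest downward was -2.1 (SE 0.26, adjusted p = 0.0179), from 8.71 to 6.62; both probe sets are unlisted. The others were unlisted too, apart from 1 that the annotation assigns to the overlapping imprinted genes Gnas and Gnasas1 (1.04, adjusted p = 0.0138).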

How the results depend on the processing

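Lpar4 kept its direction and its call in all 18 alternatives run for it. The 439 genes called (251 higher, 188 lower) became 1231 (672 and 559) with no minimum log2 difference, and 6 (4 and 2) when tested against a log2 difference of 1: Amot, Clic6, Cyp26a1 and Fgf5 higher, Emp1 and Fosb lower. With dim genes left out 103 were lower, which in part follows from fewer genes tested. Leaving out 1 array gave 284 to 653 genes in all, 157 to 393 higher and 111 to 260 lower. Higher and lower calls were 210 and 194 after repeated quantile normalization, 256 and 176 with arrays centred on their medians and 222 and 172 after cyclic loess, where the median of all genes was -0.02, -0.03 and 0.00. Against the spontaneous arrays no gene was called, but 3 were higher with array weights, and leaving out 1 array gave 0 to 1, the 1 being Asb12, lower without spontaneous replicate 1 (-1.56, adjusted p = 0.0183); the cause was not tested. On single arrays, differences of 1.5 or more were found upward in 166, 291 and 143 genes and downward in 57, 145 and 93 on cardiac replicates 1, 2 and 3, and differences of 2 or more in 78, 131 and 63 and in 16, 60 and 31.

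Day 0 and cardiac arrays of the same number deviated from their group means with correlations of 0.12, -0.02 and 0.07. For spontaneous and cardiac arrays the correlations were 0.22, 0.15 and -0.02. The numbers were not taken to pair the samples. With the replicate block 435 genes were called against day 0, 250 higher and 185 lower, and none against the spontaneous arrays. The direction of 9 uncalled genes turned. Leaving out 1 array gave -1.11 to 0.03 for Bmp4, 0.00 to 0.37 for Cdh1, -0.04 to 0.42 for Dusp6, -0.18 to 0.80 for Fn1, -0.04 to 0.07 for Lum, -0.08 to 0.11 for Mef2c, -0.03 to 0.60 for Sparc and -0.89 to 0.04 for Tbx3. Lum was -0.04 with array weights, and Ptprc was 0.05 after quantile normalization and 0.06 after cyclic loess. Array replicates number 3 a group, which limits what differences can pass; dim probe sets have no detection call here.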

Other observations

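Several called genes belong to groups described above but follow them less closely or were left unnamed there. Tex19.1, a gene active in germ cells and pluripotent cells, fell by 1.47 (limma, adjusted p = 0.000917), and Prdm14, a regulator of naive cells and germ cells, differed by -0.92 (adjusted p = 0.00906), under the minimum for a call. Dab2, an endocytic adaptor of extraembryonic endoderm, rose by 1.95 and lost its call without day 0 replicate 1 (adjusted p = 0.0755), and Cited1 rose by 1.57 (0.0098). Sox17, a factor of endoderm and endothelium, differed by 0.90 (adjusted p = 0.0134), and Etv4, an ETS factor downstream of FGF, by -0.87 (adjusted p = 0.00108), both with consistent arrays but under the minimum for a call.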
